A study of Drosophila melanogaster with 15 samples.

Results

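The unfolded protein response is the set of signals by which a cell adjusts the folding capacity of its endoplasmic reticulum (ER) to the load of secreted and membrane proteins. The genes described here were chosen by name from the FlyBase symbols of the ER stress sensors, the transcription factor *Xbp1* and the ER chaperones. Of 9 genes named, 8 were matched to the deposited table of 17509 genes: the sensors *Ire1*, *PEK* and *Atf6*, *Xbp1*, and the chaperones *Hsc70-3*, *Gp93*, *Calr* and *Cnx99A*. All 8 were among the 8101 genes tested, and the remaining gene, *Pdi*, was not analysed here.

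Astrocytes were isolated at 24 hr and at 4 hr after traumatic brain injury (TBI) and from uninjured brains, in 5 replicates per group and 15 samples in all. All flies carried *R86E01-Gal4* and *UAS-Redstinger*, in which the astrocyte driver *R86E01-Gal4* labels nuclei with a red fluorescent protein, and the labels give the genotype as WT. Injury was given at 3 days after eclosion with a high-impact trauma device, a spring that throws the vial of flies against a surface, deflected to 90 degrees. About 50 brains were pooled per group, 1600 red cells were sorted per sample, and cDNA was amplified from poly(A) by Smart-Seq2. The study's methods call the 5 replicates biological, and how they were drawn from the pools of brains is not given in the sources used here. The values are TPM, a relative abundance of transcripts corrected for their length that sums to 1000000 in every sample, so levels can be compared between genes. The deposited table gives no reads behind a TPM, so no counting error is given. In sorted pools, fewer cells of a type and less RNA per cell cannot be told apart.

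Each ER sensor has its own output in this pathway. Ire1 is a kinase and RNase that splices the *Xbp1* mRNA, PEK (the fly PERK) phosphorylates the translation factor eIF2alpha, and Atf6 is a membrane-bound transcription factor released by cleavage in the Golgi. Xbp1 and Atf6 are known to induce the chaperones of the ER lumen. A TPM per gene is a level of mRNA. It does not tell spliced from unspliced *Xbp1*, nor does it measure the activity of a kinase.

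After TBI, *Calr* rose at 24 hr and was the only one of the 8 genes to pass the test. The *Calr* call held in 7 of 15 fits that left out 1 sample and in 5 of 11 other settings. The estimated log2 fold changes of *Ire1*, *Xbp1* and the 4 chaperones were 1.24 to 1.88 at 24 hr and 0.78 to 1.16 at 4 hr. Those of *PEK* were 0.83 at 24 hr and 0.46 at 4 hr, and those of *Atf6* −0.08 and −0.18. When the fit also held the share of mitochondrial transcripts per sample, *Calr* at 24 hr had 0.54 and was not called (limma-adjusted p = 0.268). In that fit the estimates of *PEK*, *Hsc70-3*, *Gp93* and *Cnx99A* at 4 hr were below 0. So were those of *PEK* and *Cnx99A* at 24 hr, and those of *Atf6* were above 0 at both times. For each of the 8 genes the 95% interval of the difference between 24 hr and 4 hr included 0. Summed over the 8 genes, TPM was 1212 ± 443 at 24 hr, 961 ± 400 at 4 hr and 513 ± 117 in uninjured astrocytes (SD, n = 5 each). Calls required a limma-adjusted p (Benjamini–Hochberg over all 8101 genes) below 0.01 together with a change of 1 or more, in either direction, on the scale of log2(TPM + 1). By this rule 1 of the 8 genes, *Calr*, rose at 24 hr, where 2.26% of all tested genes rose. None of the 8 was called up at 4 hr, against 5.76% of all tested genes. None was called down, against 0.0617% of all tested genes at 24 hr and 0.222% at 4 hr. At an unadjusted p below 0.05, without the fold limit, 7 of the 8 passed at 24 hr and 5 at 4 hr, as did 3175 and 2196 of all tested genes. With the adjusted p set at 0.05 and the same fold limit, 6 of the 8 rose at 24 hr (*Xbp1*, *Ire1*, *Hsc70-3*, *Gp93*, *Calr* and *Cnx99A*), where 13.3% of all tested genes did. At 4 hr that looser rule called only *Xbp1* among them, and 9.41% of all tested genes. Estimates lay above 0 for 7 of the 8 at each time, as for 79.7% of all tested genes at 24 hr and 71.1% at 4 hr. Both injury comparisons use the same 5 uninjured samples.

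**Figure D1:**
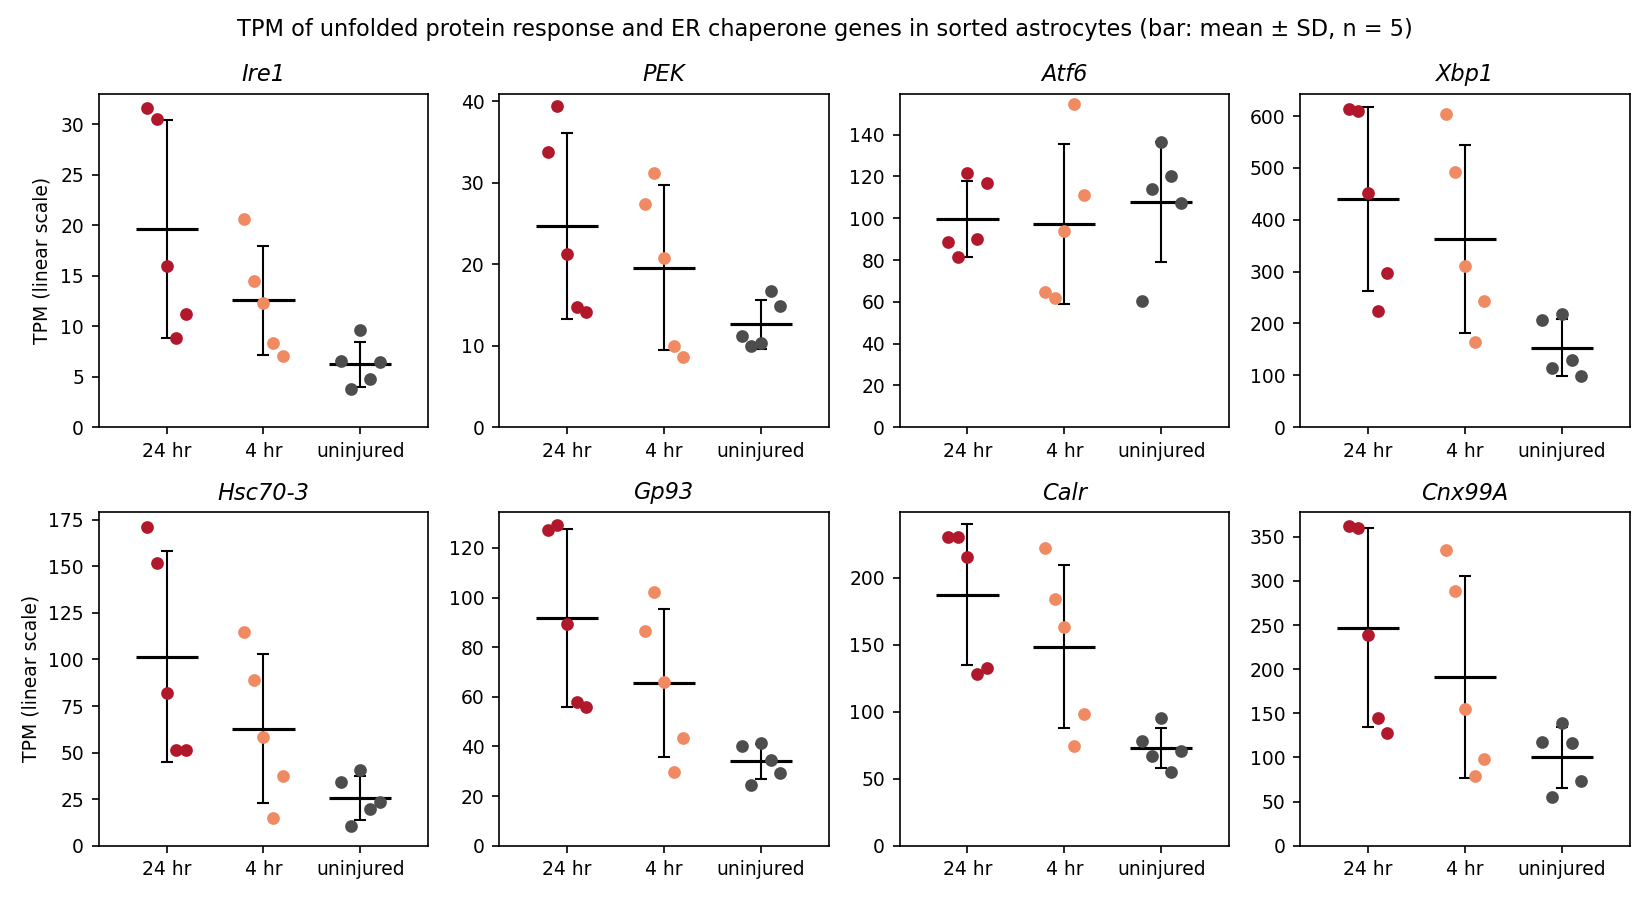
TPM (linear axis from 0) of the 8 genes in each of the 15 samples, with replicates 1 to 5 placed left to right within each group and bars for the mean ± SD (n = 5). For *Calr* the 24 hr samples lie between 128 and 230.4 TPM and the uninjured ones between 54.7 and 95.5 TPM, while for *Atf6* the ranges of the 3 groups overlap.

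The samples differed in composition in a way that ran with these genes. Transcripts of the mitochondrial genome took 15.7, 15.2, 19.6, 37.2 and 33.4% of TPM in replicates 1 to 5 at 24 hr, and 17.2, 11.5, 26.9, 43.2 and 36.3% at 4 hr. In uninjured astrocytes they took 44.9, 51.8, 32.7, 41.9 and 44.1%. Injured replicates 1 and 2 therefore had the lowest mitochondrial shares, and injured replicates 4 and 5 the highest, inside the uninjured range. The median log2 fold change against uninjured was 0.51 over all tested genes at 24 hr and 0.31 at 4 hr, and each change below is to be read against that shift. With TPM divided by median-of-ratios size factors the medians became 0.10 at 24 hr and 0.02 at 4 hr. The medians of the 8 genes were 1.33 at 24 hr and 0.84 at 4 hr as deposited, and with size factors 0.84 at 24 hr and 0.53 at 4 hr. In a covariate fit, which had the mitochondrial share as a further term, the 8 genes had medians of 0.38 at 24 hr and 0.02 at 4 hr, against 0.17 and 0.04 for all tested genes at these times. The share itself differed between groups, with means of 24.2% at 24 hr, 27.0% at 4 hr and 43.1% in uninjured astrocytes. The covariate fit therefore cannot separate a change with injury from a change with the share.

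Markers of the labelled cell type were abundant in every sample. The summed TPM of 8 astrocyte genes was 62326 to 84423 (median 70428) at 24 hr and 53867 to 75122 (median 61674) at 4 hr. In uninjured samples it was 50859 to 81051 (median 54064). Among these genes *htl* had a log2 fold change of 1.46 at 24 hr (limma-adjusted p = 0.0146) and 0.70 at 4 hr (limma-adjusted p = 0.211). *Gat* had −0.07 at 24 hr (limma-adjusted p = 0.837) and −0.26 at 4 hr (limma-adjusted p = 0.492). The summed TPM of 13 neuronal genes was 55.0 to 253 (median 81.2) at 24 hr and 76.7 to 133 (median 122) at 4 hr. In uninjured samples it was 42.1 to 114 (median 70.9). The 253 belongs to 24 hr replicate 1, where *nSyb* had 59.2 TPM against a group median of 10.6. Single neuronal genes went both ways. *Syn* had 0.90 log2 units at 24 hr (limma-adjusted p = 0.206) and 2.07 at 4 hr (limma-adjusted p = 0.0129). *fne* had −0.73 at 24 hr (limma-adjusted p = 0.267) and −0.04 at 4 hr (limma-adjusted p = 0.970). Summed levels for other glia had higher medians after injury, as had the astrocyte and neuronal sums. The 3 cortex glia genes summed to 694 to 2246 TPM (median 1221) at 24 hr, 388 to 1819 (median 978) at 4 hr and 319 to 766 (median 513) in uninjured samples. Most of that sum was *Cyp4g15*, with medians of 1031 TPM at 24 hr, 870.4 at 4 hr and 434 in uninjured samples. Its log2 fold change was 1.42 at 24 hr (limma-adjusted p = 0.0448) and 0.92 at 4 hr (limma-adjusted p = 0.223). *zyd* had 0.72 at 24 hr (limma-adjusted p = 0.0457) and −0.20 at 4 hr (limma-adjusted p = 0.632). *wrapper*, with a median of 12.5 TPM at 24 hr, had 2.74 (limma-adjusted p = 0.0149), and 1.15 at 4 hr (limma-adjusted p = 0.281). The 2 ensheathing glia genes, *drpr* and *rumpel*, summed to 379.8 to 802 TPM (median 667) at 24 hr, 305 to 759 (median 389) at 4 hr and 229 to 334 (median 311) in uninjured samples. At 4 hr *drpr*, an engulfment receptor that astrocytes also express, rose by 1.76 log2 units (limma-adjusted p = 4.24e-05), while *rumpel* had 0.06 (limma-adjusted p = 0.934). At 24 hr *drpr* had 0.87 (limma-adjusted p = 0.0211) and *rumpel* 0.96 (limma-adjusted p = 0.0518). The 5 surface glia genes had medians of 94.5 TPM at 24 hr, 86.0 at 4 hr and 48.1 in uninjured samples, with the blood-brain barrier genes *Mdr65* and *Gli* under 1 TPM in every sample. Of this list *moody* had log2 fold changes of 1.46 at 24 hr (limma-adjusted p = 0.0310) and 1.50 at 4 hr (limma-adjusted p = 0.0285). *Tret1-1* had 0.10 and 0.36 at these times, and *Indy* 0.62 and 0.14 (limma-adjusted p of 0.263 or more). The 5 hemocyte genes summed to at most 2.60 TPM and the 6 fat body genes to at most 2.23 TPM in any sample. The part of these marker shifts in the results below was not tested, since the covariate fit holds no marker term. The part of the mitochondrial share was not tested beyond the covariate fit.

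*Xbp1* (FBgn0021872, dm6 chromosome 2R from 21143545 to 21145750, forward strand) encodes the bZIP factor that Ire1 activates, and had the highest mean level of the 8 genes in all 3 groups. Its TPM in replicates 1 to 5 was 615, 611, 451, 224 and 298 at 24 hr, 604, 492.5, 310.5, 165 and 243 at 4 hr, and 206, 113, 219, 129.9 and 98.4 in uninjured astrocytes. Every 24 hr sample and all but the fourth replicate at 4 hr lay above every uninjured one. The log2 fold change was 1.48 (SE 0.36, limma-adjusted p = 0.0149) at 24 hr and 1.16 (SE 0.36, limma-adjusted p = 0.0384) at 4 hr. Neither passed the limit of 0.01. Between 24 hr and 4 hr it differed by 0.32 (95% interval −0.43 to 1.07, limma-adjusted p = 0.653). Without 4 hr replicate 4, *Xbp1* was called at both times, and without 24 hr replicate 4 at 24 hr.

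*Ire1* (FBgn0261984, chromosome 3R from 19853908 to 19861291, reverse strand) encodes the sensor upstream of *Xbp1*, and was the least abundant of the 8. It had 31.7, 30.6, 15.9, 8.83 and 11.2 TPM at 24 hr, 20.6, 14.5, 12.3, 8.37 and 7.06 TPM at 4 hr, and 6.57, 3.78, 9.64, 4.80 and 6.44 TPM in uninjured astrocytes. Replicates 1 and 2 stood highest after injury, while replicate 4 at 24 hr and replicates 4 and 5 at 4 hr lay within the uninjured range. The fitted log2 fold change was 1.40 (SE 0.38, limma-adjusted p = 0.0228) at 24 hr and 0.87 (SE 0.38, limma-adjusted p = 0.146) at 4 hr. Between 24 hr and 4 hr it was 0.53 (95% interval −0.27 to 1.33). Of the exonic bases of *Ire1*, 12.3% also lie in exons of *MICU3* on the opposite strand, and whether the counting used strand is not given in the sources used here.

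*PEK* (FBgn0037327, chromosome 3R from 5458563 to 5464753, reverse strand), the kinase that slows translation initiation, had 33.8, 39.4, 21.3, 14.7 and 14.2 TPM at 24 hr. It had 27.4, 31.2, 20.8, 9.96 and 8.62 TPM at 4 hr and 11.2, 9.92, 10.3, 16.7 and 14.9 TPM in uninjured astrocytes. The first 3 replicates lay above every uninjured sample at both times, whereas replicates 4 and 5 lay within or below the uninjured range. The log2 fold change of 0.83 at 24 hr (95% interval 0.05 to 1.61, limma-adjusted p = 0.110) and that of 0.46 at 4 hr (95% interval −0.32 to 1.24, limma-adjusted p = 0.451) did not pass. In the covariate fit both estimates lay below 0, with −0.11 at 24 hr and −0.34 at 4 hr.

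*Atf6* (FBgn0033010, chromosome 2R from 5144733 to 5154756, forward strand), the membrane-bound transcription factor, had 88.4, 81.2, 122, 89.9 and 117 TPM at 24 hr. It had 64.6, 61.6, 93.8, 155 and 111 TPM at 4 hr and 60.2, 114, 137, 120.4 and 107 TPM in uninjured astrocytes. The 3 groups overlapped throughout, and at 4 hr the order of replicates was turned round, with replicates 1 and 2 lowest. The log2 fold change was −0.08 at 24 hr (95% interval −0.63 to 0.47, limma-adjusted p = 0.841) and −0.18 at 4 hr (95% interval −0.73 to 0.37, limma-adjusted p = 0.698). Both upper bounds lie below a log2 change of 1, the fold limit used for calls. The sign is not settled, since the covariate fit gave 0.31 at 24 hr and 0.15 at 4 hr. The exons of *Atf6* overlap 4 annotated transposable elements over 30.7% of their bases, where short reads can match several places, so its TPM is uncertain.

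*Hsc70-3* (FBgn0001218, chromosome X from 11801696 to 11807117, reverse strand) encodes the fly BiP, the ATP-driven Hsp70 chaperone of the ER lumen, and had the largest fitted difference of the 8 at 24 hr. Its TPM was 171, 152, 81.8, 51.3 and 51.5 at 24 hr, 114.6, 89.2, 58.5, 14.8 and 37.4 at 4 hr, and 34.0, 10.7, 40.4, 19.9 and 23.7 in uninjured astrocytes. At 24 hr all samples lay above all uninjured ones, and at 4 hr replicates 4 and 5 fell within the uninjured range. Its log2 fold change was 1.88 (SE 0.49, limma-adjusted p = 0.0204) at 24 hr and 1.09 (SE 0.49, limma-adjusted p = 0.163) at 4 hr. The spread of the group was wide at 24 hr, with a mean of 102 ± 56.6 TPM against 25.7 ± 11.7 TPM in uninjured astrocytes (SD, n = 5). The 4 hr estimate turned to −0.19 in the covariate fit. Without 4 hr replicate 4, *Hsc70-3* was called at 24 hr.

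*Gp93* (FBgn0039562, chromosome 3R from 27948711 to 27952151, forward strand) encodes the ER member of the Hsp90 family. It had 127, 129, 89.4, 57.7 and 55.7 TPM at 24 hr, 86.7, 102, 65.9, 29.6 and 43.3 TPM at 4 hr, and 40.3, 24.5, 41.2, 34.7 and 29.2 TPM in uninjured astrocytes. The 24 hr and uninjured samples did not overlap, and at 4 hr the fourth replicate lay within the uninjured range. *Gp93* had a log2 fold change of 1.34 (SE 0.32, limma-adjusted p = 0.0152) at 24 hr and 0.82 (SE 0.32, limma-adjusted p = 0.107) at 4 hr. The covariate fit gave −0.0094 at 4 hr, and at 24 hr *Gp93* was called without 4 hr replicate 4. An overlap with *CG4951* on the opposite strand covers 3.56% of its exonic bases.

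*Calr* (FBgn0005585, chromosome 3R from 9628691 to 9630851, reverse strand) encodes calreticulin, a calcium-binding lectin chaperone for newly made glycoproteins, and was the one gene of the 8 to pass. Its TPM was 230.4, 230.3, 216, 128 and 133 at 24 hr, 222, 185, 163, 74.5 and 98.6 at 4 hr, and 77.9, 67.1, 95.5, 54.7 and 70.4 in uninjured astrocytes. Every sample at 24 hr was above every uninjured sample, as were all but replicate 4 at 4 hr. *Calr* rose 2.50-fold at 24 hr, a log2 fold change of 1.32 (SE 0.28, limma-adjusted p = 0.00842), and its log2 fold change at 4 hr was 0.93 (SE 0.28, limma-adjusted p = 0.0353). The call at 24 hr was narrow. It was lost on leaving out any of uninjured replicates 1, 2, 4 and 5, 4 hr replicate 3 or 24 hr replicates 1, 2 and 3, where the log2 fold change was 1.22 to 1.35, and at 4 hr *Calr* was called without 4 hr replicate 4. With size factors the log2 fold change at 24 hr was 0.82 (limma-adjusted p = 0.0304) and in the covariate fit 0.54 (limma-adjusted p = 0.268). Over all alternatives the adjusted p ranged from 0.000556 to 0.268.

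*Cnx99A* (FBgn0015622, chromosome 3R from 29315254 to 29319644, reverse strand) encodes a calnexin, the membrane-bound lectin chaperone that works beside calreticulin. It had 363, 359.7, 239, 145 and 128 TPM at 24 hr, 334, 289, 155, 78.7 and 98.0 TPM at 4 hr, and 117, 55.3, 139, 116 and 72.98 TPM in uninjured astrocytes. The fifth replicate at 24 hr and replicates 4 and 5 at 4 hr overlapped the uninjured samples. For *Cnx99A* the log2 fold change was 1.24 (SE 0.40, limma-adjusted p = 0.0417) at 24 hr and 0.78 (SE 0.40, limma-adjusted p = 0.226) at 4 hr. The covariate fit put both below 0, at −0.019 for 24 hr and −0.29 for 4 hr.

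**Figure D2:**
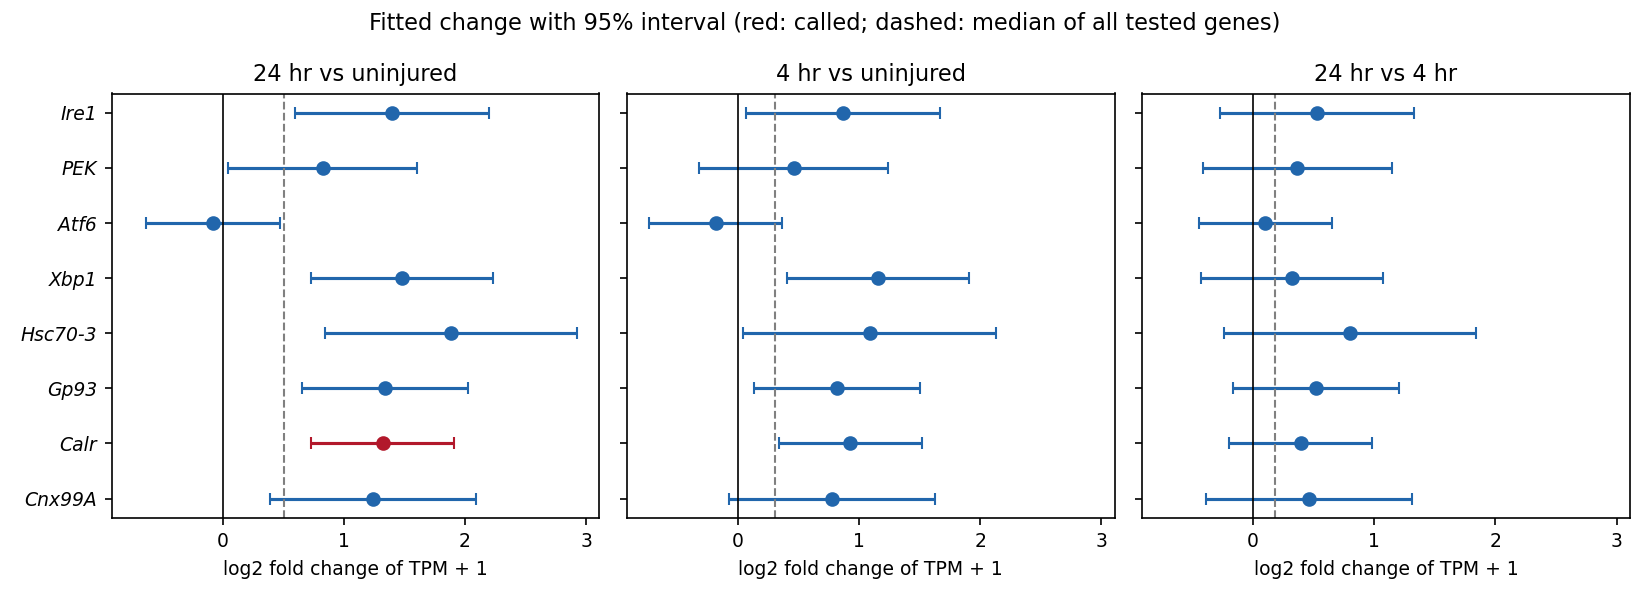
Log2 fold change of TPM + 1 with its 95% interval for each gene in the 3 comparisons, with the median of all 8101 tested genes as a dashed line (0.51, 0.31 and 0.18 from left to right). *Calr* at 24 hr, in red, is the only point called, and the intervals of all 8 genes include 0 in the comparison of 24 hr with 4 hr.

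By the separation of samples, 4 of the 8 genes (*Xbp1*, *Hsc70-3*, *Gp93* and *Calr*) had every 24 hr sample above every uninjured one, as had 12.5% of all tested genes. At 4 hr none of the 8 did, against 8.68% of all tested genes, and in each of *Xbp1*, *Gp93* and *Calr* the fourth replicate alone overlapped. Between 24 hr and 4 hr no gene of the 8 was called up or down, where 0.42% of all tested genes were up and 1.58% down. All 8 estimates for 24 hr over 4 hr were above 0, as were 64.6% of all tested genes, with a median of 0.43 against 0.18 for all tested genes. None of the 8 passed an unadjusted p below 0.05 in that comparison, and none had its 24 hr samples all above or all below its 4 hr samples, against 3.47% and 3.63% of all tested genes.

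Levels per transcript length gave a similar order of genes in each group. At 24 hr the means were 439.9 ± 178 TPM for *Xbp1*, 247 ± 113 for *Cnx99A*, 188 ± 52.3 for *Calr*, 102 ± 56.6 for *Hsc70-3*, 99.6 ± 18.3 for *Atf6*, 91.8 ± 35.8 for *Gp93*, 24.7 ± 11.4 for *PEK* and 19.6 ± 10.8 for *Ire1* (SD, n = 5 each). At 4 hr they were 363 ± 181 for *Xbp1*, 191 ± 114.8 for *Cnx99A*, 149 ± 61.0 for *Calr*, 97.2 ± 38.3 for *Atf6*, 65.5 ± 29.9 for *Gp93*, 62.9 ± 39.8 for *Hsc70-3*, 19.6 ± 10.1 for *PEK* and 12.6 ± 5.41 for *Ire1*. In uninjured astrocytes *Xbp1* (153 ± 55.2) was followed by *Atf6* (108 ± 28.7), *Cnx99A* (100.0 ± 34.6), *Calr* (73.1 ± 15.1), *Gp93* (34.0 ± 7.16), *Hsc70-3* (25.7 ± 11.7), *PEK* (12.6 ± 3.03) and *Ire1* (6.25 ± 2.23). At 24 hr only the steps from *Xbp1* to *Cnx99A*, from *Calr* to *Hsc70-3* and from *Gp93* to *PEK* exceeded the SD of both neighbours. At 4 hr only the step from *Hsc70-3* to *PEK* did so, and in uninjured astrocytes only those from *Calr* to *Gp93*, from *Hsc70-3* to *PEK* and from *PEK* to *Ire1*. *Atf6* stood next to *Xbp1* at the top in uninjured astrocytes and in the middle of the order at 24 hr.

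The genes other than *Atf6* varied together from sample to sample. Over the 15 samples the Pearson correlation of log2(TPM + 1) between 2 of the 7 genes ranged from 0.78 to 0.97 over 21 pairs (median 0.93), and after removal of the group means from 0.71 to 0.97 (median 0.87). The 7 pairs with *Atf6* ranged from −0.55 to −0.38, and from −0.68 to −0.44 within groups. These samples share their scaling to a fixed total, so the correlations are a description only. Within the injured groups, the sum of the 8 genes followed the mitochondrial share downwards. It was 1660.0, 1633, 1237, 720.1 and 809 TPM in replicates 1 to 5 at 24 hr and 1475, 1265, 880.1, 536 and 647 TPM at 4 hr. In uninjured astrocytes it was 553, 399, 691, 497 and 423 TPM, with the highest value in replicate 3, which had the lowest mitochondrial share of that group.

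**Figure D3:**
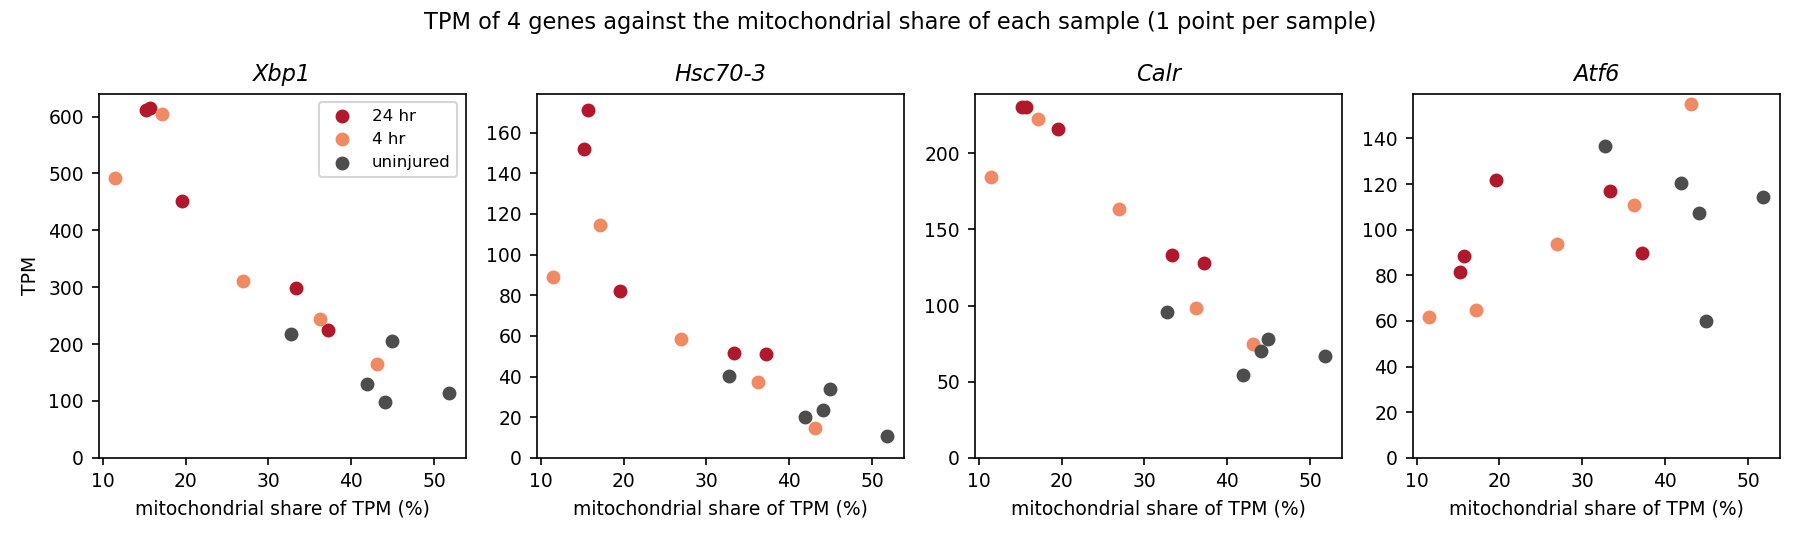
TPM of *Xbp1*, *Hsc70-3*, *Calr* and *Atf6* (vertical axes) against the percent of TPM taken by the mitochondrial genome (horizontal axes), with 1 point per sample coloured by group. The 5 samples with the lowest shares hold the 5 highest values of *Xbp1*, *Hsc70-3* and *Calr*, and *Atf6* does not fall along the axis.

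The tested genes most like each of the 8 in pattern over the 15 samples reached high correlations. For *Xbp1* they were *pst*, *Rop* and *Sap-r* (all r = 0.98), and for *Ire1* they were *htl*, *Met* and *Invadolysin* (all r = 0.96). *PEK* was nearest to *Nasp*, *hfp* and *l(3)L1231* (r = 0.97, 0.97 and 0.96). *Hsc70-3* was nearest to *Gdi* (r = 0.98), *NSD* (r = 0.98) and *Gp93* (r = 0.97), the only time that a gene of the 8 appeared among the 3 nearest. *Gp93* itself was nearest to *Lerp*, *betaCOP* and *Sos* (all r = 0.98). *Calr* was nearest to *Mpcp2*, *eIF3c* and *Diap1* (r = 0.97 each), and *Cnx99A* to *CG31705*, *Saf-B* and *Rm62* (r = 0.98 each). The nearest genes to *Atf6* reached less, with *CG31921*, *anne* and *uex* at r = 0.86 each.

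Further genes of the pathway were taken from 6 lists of the secretory route, with 73 genes named, 72 with a row and 66 tested. At 24 hr, 3 of the 66 were called up (*CaBP1*, *P58IPK* and *eIF2alpha*) and none down, and at 4 hr only *P58IPK* was called, where 2.26% of all tested genes rose at 24 hr and 5.76% at 4 hr. The medians over the 66 were 0.83 at 24 hr and 0.51 at 4 hr, against 0.51 and 0.31 for all tested genes. With the adjusted p at 0.05, 17 of the 66 rose at 24 hr and 4 at 4 hr, where 13.3% and 9.41% of all tested genes did.

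*CaBP1*, which encodes a thioredoxin-domain protein of the disulfide isomerase family, had 94.96, 94.2, 77.2, 66.3 and 58.8 TPM at 24 hr. It had 70.9, 35.4, 31.4, 18.8 and 22.9 TPM at 4 hr and 17.6, 10.99, 30.1, 24.8 and 6.58 TPM in uninjured astrocytes. The 24 hr samples were well apart from the uninjured ones, while the 4 hr samples overlapped them. *CaBP1* rose at 24 hr by 2.21 log2 units (SE 0.37, limma-adjusted p = 0.00201), and its log2 fold change of 0.98 at 4 hr did not pass (limma-adjusted p = 0.0960). The call at 24 hr was lost in the covariate fit alone (1.40, limma-adjusted p = 0.0987).

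*P58IPK* encodes an ER DnaJ protein that in mammals acts as a co-chaperone of BiP. Its TPM was 27.4, 24.1, 17.3, 13.9 and 13.1 at 24 hr, 22.04, 18.6, 11.97, 12.2 and 8.16 at 4 hr, and 2.42, 2.83, 7.92, 3.95 and 5.07 in uninjured astrocytes. All 10 injured samples lay above all uninjured ones, the fifth at 4 hr by a small margin. *P58IPK* rose by 1.92 log2 units (SE 0.34, limma-adjusted p = 0.00265) at 24 hr and by 1.53 (SE 0.34, limma-adjusted p = 0.00497) at 4 hr. At 24 hr the call was lost without 24 hr replicate 1 (limma-adjusted p = 0.0119) or replicate 2 (limma-adjusted p = 0.0104). At 4 hr it was lost on leaving out any of uninjured replicates 1, 2 and 4 or 4 hr replicates 1, 2 and 3, with log2 fold changes of 1.37 to 1.58, and with only the 2 groups compared (limma-adjusted p = 0.0161). The covariate fit ended both calls, with 1.18 at 24 hr (limma-adjusted p = 0.109) and 0.90 at 4 hr (limma-adjusted p = 0.0748), and quantile normalization the one at 24 hr (1.33, limma-adjusted p = 0.0101).

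*eIF2alpha*, the target of PEK in translation initiation, had 21.9, 17.1, 20.4, 14.9 and 17.2 TPM at 24 hr. It had 15.9, 11.8, 14.3, 10.9 and 14.2 TPM at 4 hr and 8.90, 5.25, 11.1, 8.91 and 5.75 TPM in uninjured astrocytes. The 24 hr samples did not overlap the uninjured ones, and at 4 hr the fourth replicate fell just below the highest of them. *eIF2alpha* rose at 24 hr by 1.14 log2 units (SE 0.25, limma-adjusted p = 0.00963), and had 0.72 (limma-adjusted p = 0.0647) at 4 hr. The call was at the limit, and it was lost in 13 of 15 fits that left out 1 sample, all but those without uninjured replicate 3 and without 4 hr replicate 4. With size factors its log2 fold change at 24 hr was 0.68 (limma-adjusted p = 0.0728), with quantile normalization 0.54 (limma-adjusted p = 0.148) and in the covariate fit 0.86 (limma-adjusted p = 0.211).

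Among the other UPR regulators (11 tested), the largest estimates were those of *RtcB*, an RNA ligase that joins the cut *Xbp1* mRNA in worms and mammals, at 24 hr and of *CrebA*, a bZIP factor of secretory genes, at 4 hr. *RtcB* had 44.4, 49.7, 17.9, 12.7 and 19.2 TPM at 24 hr, 18.2, 21.8, 6.55, 9.17 and 6.75 TPM at 4 hr, and 2.56, 5.35, 10.5, 11.2 and 3.71 TPM in uninjured astrocytes. Its log2 fold change at 24 hr, with no overlap of samples, was 1.93 (limma-adjusted p = 0.0140), and that of *CrebA* at 4 hr was 1.33 (limma-adjusted p = 0.0269). Neither passed the limit of 0.01. The lowest estimates of this list were −0.37 at 4 hr for *S1P*, the protease that cleaves Atf6 in mammals (limma-adjusted p = 0.518), and −0.12 at 24 hr for *Irbp18*, a bZIP factor (limma-adjusted p = 0.773).

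Of the ER folding genes, 12 of 12 tested had estimates above 0 at both times, as had 79.7% of all tested genes at 24 hr and 71.1% at 4 hr, with medians of 1.18 at 24 hr and 0.60 at 4 hr, with 2 called at 24 hr and 1 at 4 hr. The degradation list (ERAD, 12 tested) had medians of 0.70 at 24 hr and 0.20 at 4 hr with no call. Its largest estimates were those of *TER94*, the p97 ATPase, at 24 hr (1.48, limma-adjusted p = 0.0405) and of its cofactor *Npl4* at 4 hr (0.81, limma-adjusted p = 0.255). Its lowest were those of *Der-1*, a derlin, at 24 hr (−0.07, limma-adjusted p = 0.860) and of *Edem1*, a mannosidase-like lectin, at 4 hr (−0.46, limma-adjusted p = 0.586).

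Translocation into the ER (16 tested) had medians of 0.50 at 24 hr and 0.49 at 4 hr, against 0.51 and 0.31 for all tested genes, and no call. *SrpRalpha*, a subunit of the receptor of the signal recognition particle, had the largest estimates, 2.11 at 24 hr (limma-adjusted p = 0.0413) and 1.61 at 4 hr (limma-adjusted p = 0.135). *Sec61gamma*, the small subunit of the translocation channel, had the lowest, −0.72 at 24 hr (limma-adjusted p = 0.143) and −0.13 at 4 hr (limma-adjusted p = 0.856). In the oligosaccharyltransferase, which attaches N-glycans, 5 of 6 subunits had estimates above 0 at both times and none was called. Of all tested genes, 79.7% had estimates above 0 at 24 hr and 71.1% at 4 hr. *OstDelta* was highest at 24 hr (1.43, limma-adjusted p = 0.0225) and the catalytic subunit *Stt3A* at 4 hr (1.03, limma-adjusted p = 0.0442). The small subunit *Dad1* was the exception, with −0.66 at 24 hr (limma-adjusted p = 0.149) and −0.43 at 4 hr (limma-adjusted p = 0.434). Of 9 ER export genes 8 had estimates above 0 at 24 hr and 9 at 4 hr, against the same shares of all tested genes, and none was called. There the COPII coat gene *Sec23* had 1.26 at 24 hr (limma-adjusted p = 0.0721) and 1.02 at 4 hr (limma-adjusted p = 0.184), and *KdelR*, the receptor that returns ER proteins from the Golgi, had −0.03 at 24 hr (limma-adjusted p = 0.938).

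**Figure D4:**
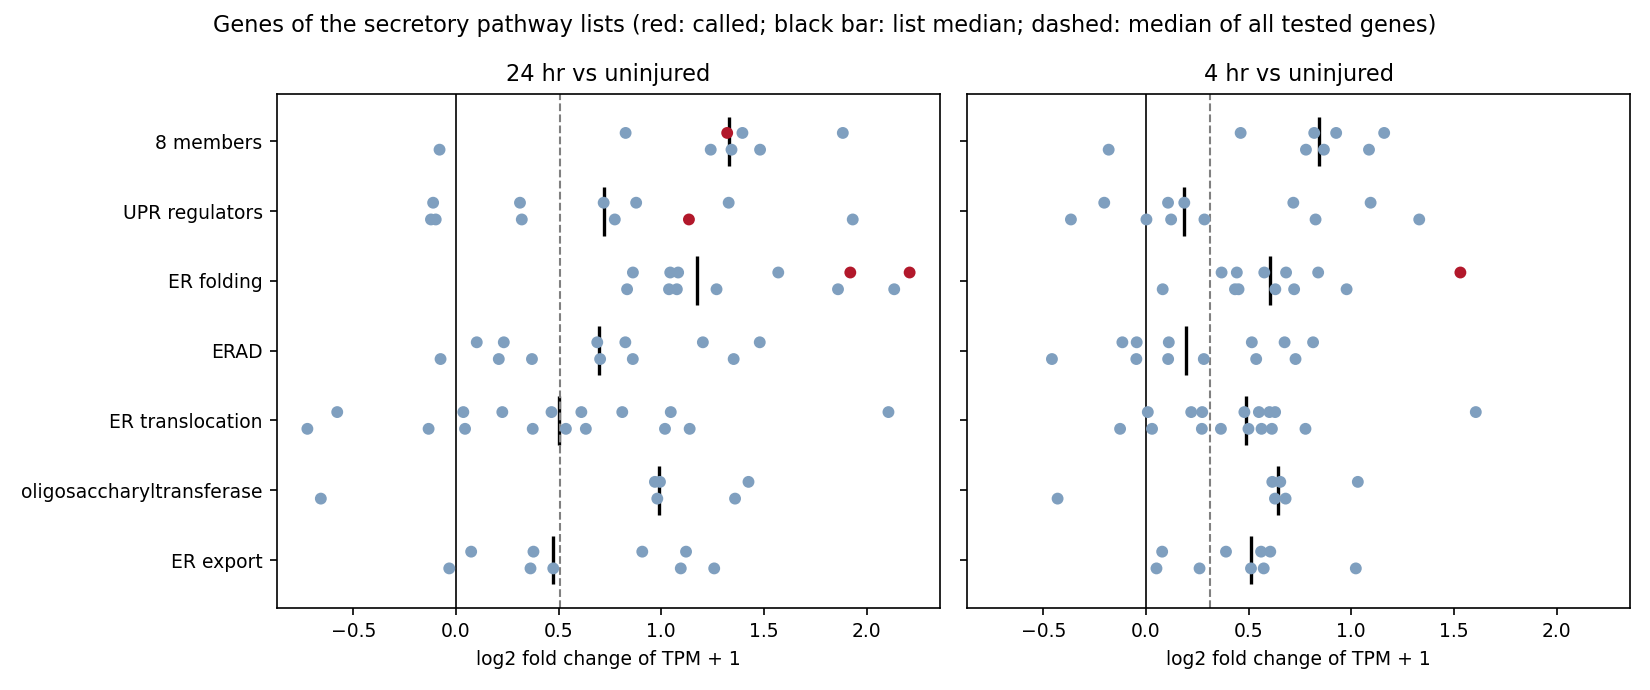
Log2 fold change of TPM + 1 of single genes (points) in the 8 genes and the 6 lists, at 24 hr (left) and 4 hr (right) against uninjured, with list medians as black bars, called genes in red and the median of all tested genes as a dashed line. All 12 ER folding genes lie to the right of 0 in both panels, and *CaBP1*, *P58IPK*, *eIF2alpha* and *Calr* are the red points at 24 hr.

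Of 4 chaperones of other compartments, 1 was called up at each time, where 2.26% of all tested genes were at 24 hr and 5.76% at 4 hr. *Hsc70-4*, the main Hsp70 chaperone of the cytosol, had 637, 552, 385, 212 and 210.4 TPM at 24 hr, 664, 671, 377, 166 and 258 TPM at 4 hr, and 154, 68.1, 122, 119 and 64.8 TPM in uninjured astrocytes. All injured samples lay above all uninjured ones at both times. *Hsc70-4* rose by 1.84 log2 units at 24 hr (SE 0.40, limma-adjusted p = 0.00987) and by 1.89 at 4 hr (SE 0.40, limma-adjusted p = 0.00387). The 24 hr call was lost on leaving out any uninjured replicate, 4 hr replicate 3 or 5, or 24 hr replicate 1, 2 or 3 (log2 fold change 1.63 to 1.99), and the 4 hr call on leaving out uninjured replicate 2 or 5 or 4 hr replicate 1, 2 or 3 (1.68 to 1.89). The covariate fit ended both calls, with 0.64 at 24 hr (limma-adjusted p = 0.312) and 0.87 at 4 hr (limma-adjusted p = 0.0288), and no filter did too (limma-adjusted p = 0.0268 at 24 hr and 0.0138 at 4 hr). The 24 hr call was also lost with size factors (1.34, limma-adjusted p = 0.0238), with quantile normalization, without the mitochondrial genome, without the variance trend and with a pseudocount of 0.1 (limma-adjusted p = 0.0115 to 0.0236). The cytosolic Hsp90 gene *Hsp83* had log2 fold changes of 0.98 at 24 hr (limma-adjusted p = 0.00706) and 0.71 at 4 hr (limma-adjusted p = 0.0269), under the fold limit of 1. The mitochondrial chaperones *Hsc70-5* (1.19 at 24 hr and 1.07 at 4 hr) and *Trap1* (1.81 at 24 hr and 1.27 at 4 hr) did not pass at either time.

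Ratios of an ER chaperone to its cytosolic relative were taken within each sample, where the scaling of the sample enters only through the pseudocount added to TPM. The log2 ratio of *Hsc70-3* to *Hsc70-4*, both as TPM + 1, was −1.89, −1.85, −2.22, −2.02 and −2.01 at 24 hr, −2.52, −2.90, −2.67, −3.40 and −2.75 at 4 hr, and −2.15, −2.56, −1.58, −2.52 and −1.41 in uninjured astrocytes. All 24 hr ratios lay above all 4 hr ratios, while uninjured replicate 2 lay within the 4 hr range. The ratio was higher at 24 hr than at 4 hr by 0.85 (exact two-sided permutation test, p = 0.00794, the smallest that 5 against 5 samples can give, adjusted p = 0.0476 over 6 ratio tests). It was lower at 4 hr than in uninjured astrocytes, with a difference of −0.80 (exact permutation p = 0.0159, adjusted p = 0.0476), and differed by 0.05 between 24 hr and uninjured astrocytes (exact permutation p = 0.841). An adjusted p of 0.0476 lies just below 0.05, the limit used for ratios, and above 0.01, the limit used for gene calls. Leaving out 1 sample, the difference between 24 hr and 4 hr ranged from 0.71 to 0.93, with an adjusted p of 0.0952 without any of 4 hr replicates 2 to 5. That between 4 hr and uninjured ranged from −0.93 to −0.65, with an adjusted p of 0.0952 without any of uninjured replicates 1, 3, 4 and 5 or of 4 hr replicates 2 to 5. With 4 samples against 5 the smallest p possible is 0.0159. Every such fit of 24 hr against 4 hr reached it, so its adjusted p moved only with the other ratio tests. A pseudocount of 0.1 gave −0.79 between 4 hr and uninjured (exact permutation, adjusted p = 0.0952).

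For the Hsp90 pair, the log2 ratio of *Gp93* to *Hsp83* averaged −2.76 ± 0.40 at 24 hr, −3.01 ± 0.37 at 4 hr and −3.12 ± 0.40 in uninjured astrocytes (SD, n = 5 each). Its differences were 0.36 between 24 hr and uninjured (exact permutation p = 0.198), 0.11 between 4 hr and uninjured (exact permutation p = 0.627) and 0.25 between 24 hr and 4 hr (exact permutation p = 0.333). The 3 groups overlapped, and whether the pairs differ from each other was not tested.

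**Figure D5:**
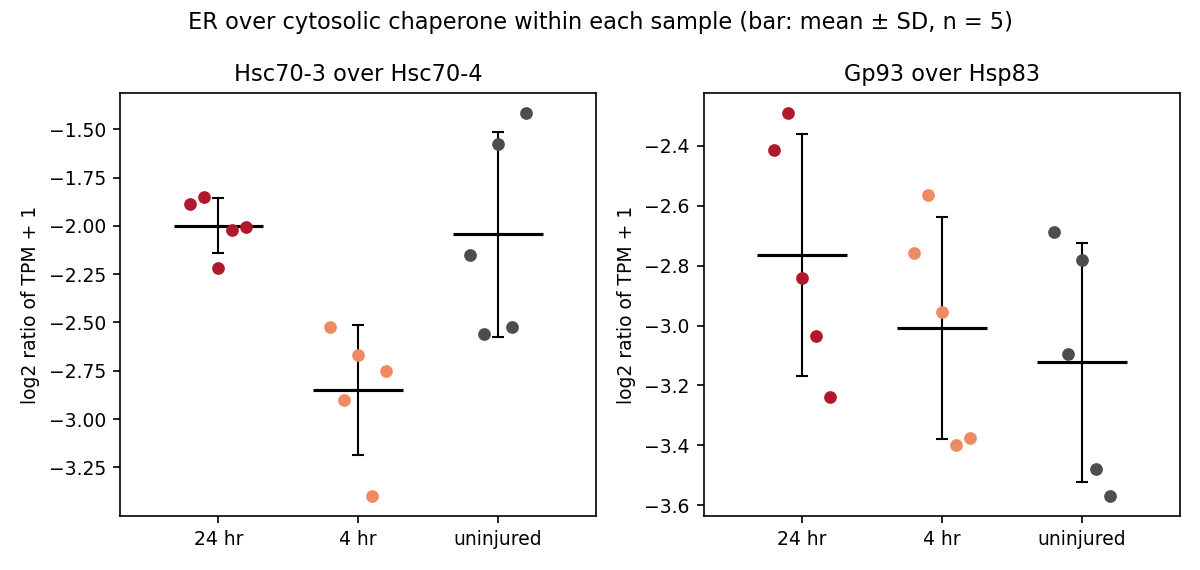
Log2 ratio of TPM + 1 of an ER chaperone over its cytosolic relative in each sample (points) with mean ± SD (n = 5), for *Hsc70-3* over *Hsc70-4* (left) and *Gp93* over *Hsp83* (right). On the left the 4 hr samples lie between −3.40 and −2.52, below all 24 hr samples, which lie between −2.22 and −1.85.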

How the data were processed

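Smart-Seq2 libraries of 15 samples of sorted astrocytes were sequenced. The authors trimmed reads with Trimmomatic 0.39, aligned them to dm6 with HISAT2, counted them with HTSeq and compared counts with DESeq2 1.30.1. Per the submitters' processing notes, FastQC 0.11.7, STAR 2.6.0a, RSEM 1.3.1 and R 4.0.0 were also used. The deposited table holds TPM to 2 decimals, and how the authors computed it is not given in the sources used here. The study states an average depth, but the deposited TPM keep no read counts, so depth per sample is unknown and precision rests on the replicates.

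TPM had to reach 1 in 5 or more samples. Values were analysed as log2(TPM + 1), on which changes of low genes are understated, in 1 limma 3.58.1 fit of all 3 groups (variance trend, R 4.3.3). Calls needed a Benjamini–Hochberg adjusted p below 0.01 with a log2 change of 1 or more in size. On simulated data for 4 hr against uninjured, 134 of 200 genes changed by 2 on the log2 scale were found, with 4 false calls. Whether these numbers hold for the deposited samples, which differ in composition, was not tested. Ratios were compared by exact two-sided permutation over 252 arrangements. Their p was adjusted over 6 tests and read at a limit of 0.05, looser than that for gene calls. Python 3.11.15 was used for tables and plots, with pandas 2.3.3, NumPy 2.4.6, SciPy 1.17.1 and matplotlib 3.10.9. Names, positions and exon overlaps come from the BDGP6 annotation of dm6.

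The members and lists were chosen with earlier results of these data known. Named were the 8 genes, called list genes, the largest rise and fall of each list at each time, and the 3 genes nearest in pattern to each of the 8. Other settings tried were a smaller pseudocount (0.1), a filter at 5 TPM, no filter, only the 2 groups compared, no variance trend, size factors, quantile normalization, removal of the mitochondrial genome, sample weights, replicate numbers as a block, the mitochondrial share as covariate, an adjusted p of 0.05, and leaving out each sample in turn. *Pdi* and *Tango1* were not matched by name and are not analysed here.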

Additional observations from a re-analysis of the deposited data

Results flagged for a closer look

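The ratio of *Hsc70-3* to *Hsc70-4* differed between the times after injury at an adjusted p below 0.05, the limit used for ratios. On the log2 scale it averaged −1.999 ± 0.14 at 24 hr and −2.85 ± 0.34 at 4 hr (SD, n = 5 each), a difference of 0.85 (exact two-sided permutation test, p = 0.00794, adjusted p = 0.0476 over 6 ratio tests), with all 24 hr samples above all 4 hr samples. In 4 of 10 fits that left out 1 sample, the adjusted p of this permutation test was above 0.05, up to 0.0952. All 24 hr samples stayed above all 4 hr samples in each, so the unadjusted p was 0.0159, the smallest possible with 4 against 5. Whether it passed after adjustment was therefore set by the other ratio tests. The adjustment does not cover the choice of lists, made with earlier results of these data known. Of the 30 groups of 5 values searched for a sample far from the rest (8 genes and 2 ratios in 3 groups), none had one. Chance gives about 1 in 20, but these groups share samples and genes that vary together. That rate is therefore only a rough guide.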

How the results depend on the processing

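Of the 8 genes, 0 were called at 4 hr, and 2 with sample weights and 1 at an adjusted p of 0.05. At 24 hr the count of 1 became 0 with no filter, without the variance trend, with size factors, with quantile normalization, without the mitochondrial genome and with the mitochondrial covariate, 3 with only the 2 groups compared, 5 with sample weights and 6 at an adjusted p of 0.05. Of all tested genes, 485 were called at 4 hr (467 up and 18 down), and 820 at an adjusted p of 0.05. The 188 called at 24 hr (183 up and 5 down) became 102 with no filter, 72 with size factors (50 up and 22 down), 66 with quantile normalization (45 up and 21 down), 84 without the mitochondrial genome, 586 with sample weights, 27 with the covariate and 1097 at an adjusted p of 0.05. At 4 hr the split was 324 up and 72 down with size factors and 283 and 81 with quantile normalization. Between 24 hr and 4 hr, 162 became 279 with the covariate and 294 at an adjusted p of 0.05. The list genes called numbered 1 at 4 hr, and 0 with only the 2 groups compared or the covariate, 2 with sample weights and 4 at an adjusted p of 0.05. At 24 hr the 3 became 1 with quantile normalization, 12 with sample weights, 0 with the covariate and 17 at an adjusted p of 0.05. Between 24 hr and 4 hr their count of 0 became 1 with only the 2 groups compared, with the covariate and at an adjusted p of 0.05. The cause of these shifts was not tested.

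With the mitochondrial covariate the log2 fold change turned to −0.34 for *PEK*, 0.15 for *Atf6*, −0.19 for *Hsc70-3*, −0.0094 for *Gp93*, −0.29 for *Cnx99A*, 0.12 for *Sec61gamma*, −0.021 for *SrpRalpha*, 0.30 for *Dad1* and −0.029 for *Sec23* at 4 hr. At 24 hr it turned to −0.11 for *PEK*, 0.31 for *Atf6*, −0.019 for *Cnx99A*, 0.16 for *Irbp18*, 0.25 for *Der-1*, 0.20 for *Dad1* and 0.14 for *KdelR*, which was 0.035 with sample weights. *Atf6* between 24 hr and 4 hr was −0.058 with size factors. For *Hsc70-3* over *Hsc70-4* at 4 hr, a pseudocount of 0.1 gave −0.79 (exact permutation, adjusted p = 0.0952).

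Leaving out 1 sample, the 8 genes had 0 to 2 calls at 4 hr, 0 to 4 at 24 hr and 0 between the times. All genes had 359 to 580 at 4 hr, 69 to 287 at 24 hr and 116 to 172 between the times, and list genes 0 to 2 at 4 hr, 1 to 7 at 24 hr and 0 between the times. The log2 fold change ranged from −0.27 to 0.018 for *Atf6* at 24 hr and from −0.039 to 0.29 between the times, from −0.29 to 0.035 for *Irbp18*, from −0.25 to 0.043 for *Der-1* and from −0.16 to 0.15 for *KdelR* at 24 hr, and from −0.37 to 0.13 for *Sec61gamma* at 4 hr. The difference in the log2 ratio of *Hsc70-3* to *Hsc70-4* ranged from −0.93 to −0.65 at 4 hr, from −0.083 to 0.20 at 24 hr and from 0.71 to 0.93 between the times.

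The replicate numbers share no animals or stated batch. They are the numbers of the sample titles, and the submitters' descriptions of uninjured and 24 hr samples mostly carry other numbers. Of 15 same-numbered pairs, 8 had a correlation of deviations over 0.1 (range −0.04 to 0.54), against 9 of 60 other pairs (range −0.51 to 0.56). Of 30 best matches, each among the 5 replicates of another group, 11 had the sample's own number. In both injured groups the numbers ran with the mitochondrial share, lowest in replicates 1 and 2 and highest in 4 and 5. The part of that share in these matches and in the replicate block was not tested. With the replicate block, 1 of the 8 genes was called at 4 hr and 5 at 24 hr, list genes numbered 2 and 13, and 598 of all genes were called at 24 hr.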
